A study of Mus musculus with 6 samples.

Results

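The growth hormone axis of the liver was followed through 9 genes, chosen by symbol for their place in the pathway: the receptor Ghr, the transcription factors Stat5a and Stat5b, the feedback inhibitors Socs2 and Cish, the repressor Bcl6, the secreted factors Igf1 and Igfals, and the STAT5-dependent enzyme gene Hsd3b5. All 9 were among the 15960 genes of the expression table. Liver RNA libraries numbered 3 from Cyp2e1-/- (knockout) and 3 from Cyp2e1+/+ (wild type) mice of strain C57BL/6 aged 22 weeks, all fed a high-fat diet for 14 weeks, so that no group on another diet stands beside them. The labels do not say whether each library came from a separate mouse, and n counts libraries. The labels used here give neither the sex of the mice nor the construction of the knockout allele. Expression is given in FPKM, a fragment number divided by transcript length and by library size, so that levels of different genes can be set side by side.

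Growth hormone reaches hepatocytes through GHR, which activates the kinase JAK2, and JAK2 phosphorylates STAT5A and STAT5B. These enter the nucleus and switch on genes such as Igf1 and Igfals, the source of most circulating IGF1 and of the subunit that holds it in blood, and Socs2 and Cish, whose products damp the receptor's signal. In rodents the pulsed pattern of growth hormone in males, read by STAT5B, keeps up male-biased liver genes such as Hsd3b5, and BCL6 is a repressor that can occupy STAT5 motifs.

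The knockout label was borne out by Cyp2e1, at 257 ± 12.0 FPKM in knockout and 6480 ± 823 FPKM in wild type livers (SD, n = 3 each). Libraries summed to 562590 to 624264 FPKM, and the steps between low values gave an estimated depth of 8.26 to 8.59 M fragments per library, with 10.8 M in knockout replicate 1. At that depth 1 FPKM over 1 kilobase of transcript stood for 8.26 to 10.8 fragments. The libraries numbered 1 stood apart in both genotypes, with quality weights of 0.368 (knockout) and 0.291 (wild type) against 1.1 to 2.86 for the other 4. Summed hepatocyte markers (8 genes) were 45980 to 53770 FPKM in knockout and 42320 to 49450 FPKM in wild type livers. Summed macrophage markers (10 genes) were lower in the knockout, at 80.24 to 147.4 FPKM against 155.6 to 173.7 FPKM in wild type, and 1 of the 9 tested, Lyz2, fell (limma, adjusted p = 0.038), though not with the replicate number as a block (0.082), under median of ratios or quantile scaling (0.074 and 0.069), with low genes kept in the test (0.12), without the mean-variance trend (0.058), or with any library but knockout replicate 1 left out (0.059 to 0.17). Most of the macrophage sum came from Clec4f, Cd5l and Lyz2, and of the list Marco alone averaged higher in the knockout (2.70 against 2.09 FPKM). In bulk liver RNA, fewer cells of a type and less RNA per cell cannot be told apart.

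Of the 9 genes, 1 fell in the knockout, none rose and 8 did not pass (limma on log2(FPKM + 1), Benjamini-Hochberg adjusted p under 0.05). Over all 9968 tested genes 0.762% passed, 0.472% upward and 0.291% downward. The median log2 fold change of the 9 was -0.21, against -0.03 for all tested genes. Fold changes were negative for 7 and positive for 2, Socs2 and Cish. Knockout and wild type FPKM did not overlap for 4 of the 9 (Ghr, Igfals, Bcl6 and Hsd3b5), all lower in the knockout, and over all tested genes the groups stood apart, in either direction, in 15.4%. At an unadjusted p under 0.05 there were 5 of the 9, and 9.93% of all tested genes. The 9 were chosen with earlier results of these data known. Their shares may be partly set by that choice and are no test of the pathway.

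The genes spanned a wide range of levels. By mean FPKM the order in the knockout was Ghr (184.5), Igf1 (43.7), Igfals (25.1), Hsd3b5 (24.3), Stat5b (10.3), Socs2 (7.01), Cish (3.27), Stat5a (3.13) and Bcl6 (1.89). In wild type it was Ghr (214.3), Hsd3b5 (80.7), Igf1 (55.8), Igfals (35.6), Stat5b (11.1), Bcl6 (3.62), Socs2 (3.47), Stat5a (3.29) and Cish (2.47). Hsd3b5 thus stood next to Igfals in the knockout, where the libraries of both genes overlapped, and above Igf1 in wild type, where they did not. Neighbours among the 4 least abundant wild type genes overlapped in their libraries, and so did Cish and Stat5a in the knockout.

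**Figure D1:**
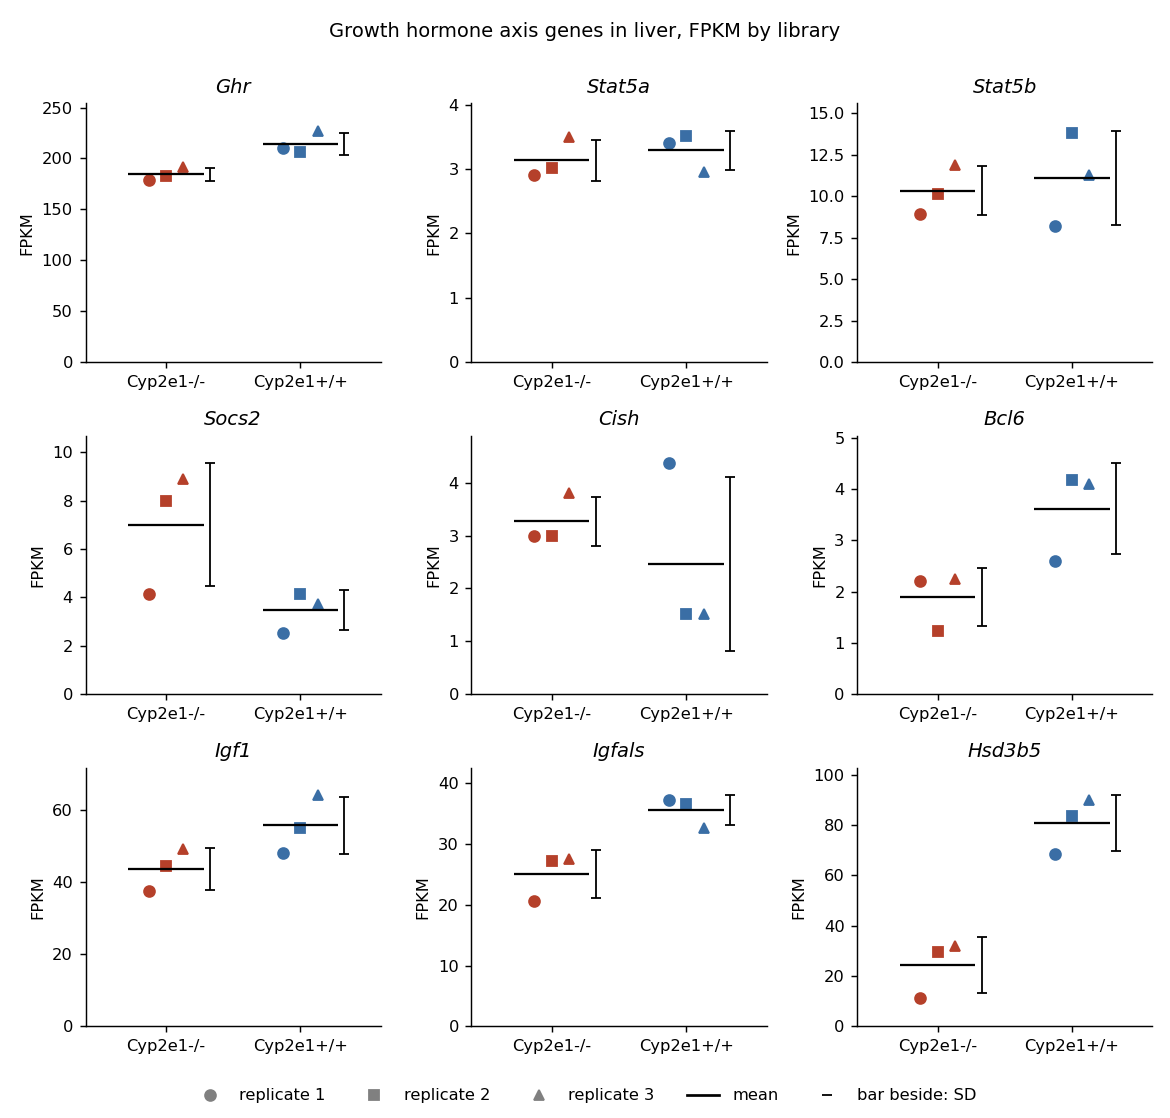
FPKM of the 9 growth hormone axis genes in each library, Cyp2e1-/- left of Cyp2e1+/+ (n = 3 each), on linear axes from 0; the horizontal line is the mean and the bar beside it the SD. Hsd3b5 sits at 11.35 to 32.02 FPKM in the knockout and 68.41 to 89.98 FPKM in wild type, while Stat5a and Stat5b overlap.

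Promoter windows show where the STAT5-type motif TTCNNNGAA lies in these genes. The windows are RefSeq sequence of GRCm38.p6, the assembly that mm10 names, from 250 bases before to 50 bases after an annotated start, and 8 of the 9 genes had 1 or more, giving 14 windows. Socs2 had no window and was not searched. The motif is its own reverse complement, so a search of 1 strand covers both. It was found in 5 of the 14 windows and in 3 of the 8 genes, Igfals, Cish and Bcl6, against 8.3% of 32851 windows and 9.55% of 27025 genes. The members were chosen for their place in the pathway, and a gene with more windows, such as Igfals with 3, has more room for a match. These shares are therefore not like for like, and the difference was not tested. Shown here are the Cish window with its 2 adjacent matches, 1 window each of Igfals and Bcl6, and Hsd3b5, the member that fell, with none. Capitals mark each match, and sequences run 5′ to 3′ along the gene.
Cish, chr9:107296409-107296708, plus strand: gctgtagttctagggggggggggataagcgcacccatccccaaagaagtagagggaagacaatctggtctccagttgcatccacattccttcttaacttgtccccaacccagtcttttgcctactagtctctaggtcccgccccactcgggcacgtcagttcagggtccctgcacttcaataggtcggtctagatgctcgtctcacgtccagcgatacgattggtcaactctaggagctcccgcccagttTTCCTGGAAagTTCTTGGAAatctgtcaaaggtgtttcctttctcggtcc
Igfals, chr17:24877981-24878280, plus strand: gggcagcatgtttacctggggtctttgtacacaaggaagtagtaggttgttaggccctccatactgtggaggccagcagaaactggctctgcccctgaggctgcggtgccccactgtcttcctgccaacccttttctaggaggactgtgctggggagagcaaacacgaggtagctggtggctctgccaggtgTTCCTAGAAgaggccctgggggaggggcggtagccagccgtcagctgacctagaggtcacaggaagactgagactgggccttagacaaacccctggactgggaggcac
Bcl6, chr16:23981234-23981533, minus strand: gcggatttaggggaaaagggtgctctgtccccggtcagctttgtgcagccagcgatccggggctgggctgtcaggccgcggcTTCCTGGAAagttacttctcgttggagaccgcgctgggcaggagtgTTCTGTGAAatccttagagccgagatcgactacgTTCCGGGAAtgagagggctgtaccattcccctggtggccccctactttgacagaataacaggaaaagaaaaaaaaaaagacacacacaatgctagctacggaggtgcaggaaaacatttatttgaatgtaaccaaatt
Hsd3b5, chr3:98645485-98645784, minus strand: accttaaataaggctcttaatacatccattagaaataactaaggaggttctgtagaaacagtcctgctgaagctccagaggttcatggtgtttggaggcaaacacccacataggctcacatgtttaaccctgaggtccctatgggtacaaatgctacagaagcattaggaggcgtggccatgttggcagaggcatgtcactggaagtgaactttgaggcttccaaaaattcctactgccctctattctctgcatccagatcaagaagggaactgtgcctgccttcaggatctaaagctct
In Cish the matches TTCCTGGAA and TTCTTGGAA began at the annotated start itself and 11 bases after it. The Igfals match TTCCTAGAA began 58 bases before its start, and another Igfals window held TTCTCAGAA at 236 bases before its start. The Bcl6 window shown held 3 matches, which began 168, 122 and 88 bases before its start. A match describes these letters only, and no binding was measured.

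The receptor gene Ghr (gene 14600, chromosome 15, 3317755 to 3583352) was the most abundant of the 9. It stood at 179.22, 182.62 and 191.62 FPKM in knockout livers, against 210.13, 206.01 and 226.88 FPKM in wild type livers. All 3 knockout libraries lay below all 3 wild type libraries, and the spread within each group was narrow. The means were 184.5 ± 6.41 FPKM in the knockout and 214.3 ± 11.1 FPKM in wild type (SD, n = 3 each), a knockout level of 0.861 of wild type. The log2 fold change was -0.21 (SE 0.11, 95% interval -0.46 to 0.03) and did not pass (limma, adjusted p = 0.58).

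Stat5a and Stat5b, which encode the pair of transcription factors activated by the receptor, lie next to each other on chromosome 11, 346 bases apart. Stat5b (gene 20851, 100780731 to 100859004), the form that carries most of the liver's growth hormone response in mice, stood at 8.94, 10.16 and 11.89 FPKM in knockout livers, against 8.21, 13.84 and 11.29 FPKM in wild type livers. Stat5a (gene 20850, 100859351 to 100885169) stood at 2.9, 3.01 and 3.49 FPKM in knockout livers, against 3.41, 3.51 and 2.95 FPKM in wild type livers. The groups overlapped for both genes. Fold changes were -0.08 for Stat5b (95% interval -0.50 to 0.34; limma, adjusted p = 0.95) and -0.05 for Stat5a (95% interval -0.38 to 0.27; limma, adjusted p = 0.96), and the libraries allow differences up to the ends of those intervals. The sign of Stat5b turned when knockout replicate 1 (0.01) or wild type replicate 2 (0.08) was left out, and neither passed. Per library, Stat5b exceeded Stat5a 3.29 ± 0.18 times in the knockout and 3.39 ± 0.85 times in wild type. Transcripts of Stat5a share 20.2% of their 31-base words with Stat5b, so fragments from there may have been divided between them.

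The feedback inhibitors were the only members with a positive fold change. Socs2 (gene 216233, chromosome 10, 95383903 to 95417321), whose product recruits a ubiquitin ligase to the receptor, stood at 4.12, 7.99 and 8.91 FPKM in knockout livers, against 2.53, 4.14 and 3.74 FPKM in wild type livers. Knockout replicate 1 lay just under the highest wild type value, and the other knockout libraries lay above all wild type ones. Means were 7.01 ± 2.54 FPKM in the knockout and 3.47 ± 0.84 FPKM in wild type (SD, n = 3 each), with a log2 fold change of 0.80 (SE 0.25, 95% interval 0.24 to 1.37) that did not pass (limma, adjusted p = 0.27). Within each replicate number the knockout was higher, by 0.54, 0.81 and 1.06 on the log2 scale. Without knockout replicate 1 the fold change was 1.1 and passed (limma, adjusted p = 0.025), as it did at 0.94 without replicate 1 of both genotypes (limma, adjusted p = 0.0033). Those settings called 211 and 1183 of the 9968 tested genes, against 76 with all 6 libraries.

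Cish (gene 12700, chromosome 9, 107296659 to 107302784), which encodes a related protein that binds the activated receptor, stood at 3.0, 2.99 and 3.81 FPKM in knockout livers, against 4.37, 1.51 and 1.52 FPKM in wild type livers. The highest of the 6 values was wild type replicate 1, and the other wild type libraries were the lowest. The log2 fold change was 0.39 (SE 0.28, 95% interval -0.22 to 1.01; limma, adjusted p = 0.71). The knockout minus wild type difference was -0.42 on the log2 scale between the libraries numbered 1, and 0.67 and 0.93 between those numbered 2 and 3. Without replicate 1 of both genotypes Cish passed, with a fold change of 0.80 (limma, adjusted p = 0.017). That setting called 1183 of the 9968 tested genes, against 76 with all 6 libraries. Socs2 and Cish transcripts share no 31-base word.

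Bcl6 (gene 12053, chromosome 16, 23965050 to 23988866), the repressor gene, stood at 2.21, 1.23 and 2.24 FPKM in knockout livers, against 2.6, 4.17 and 4.09 FPKM in wild type livers. The groups did not overlap, and wild type replicate 1 lay closest to the knockout values. Means were 1.89 ± 0.57 FPKM in the knockout and 3.62 ± 0.88 FPKM in wild type (SD, n = 3 each), a log2 fold change of -0.68 (SE 0.21, 95% interval -1.14 to -0.21) that did not pass (limma, adjusted p = 0.26). It passed without replicate 1 of both genotypes (fold change -0.93; limma, adjusted p = 0.019), where 1183 of the 9968 tested genes did, against 76 with all libraries. Bcl6 is also expressed by immune cells, and the summed macrophage markers were lower in the knockout too. Their part in the Bcl6 values was not tested.

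**Figure D2:**
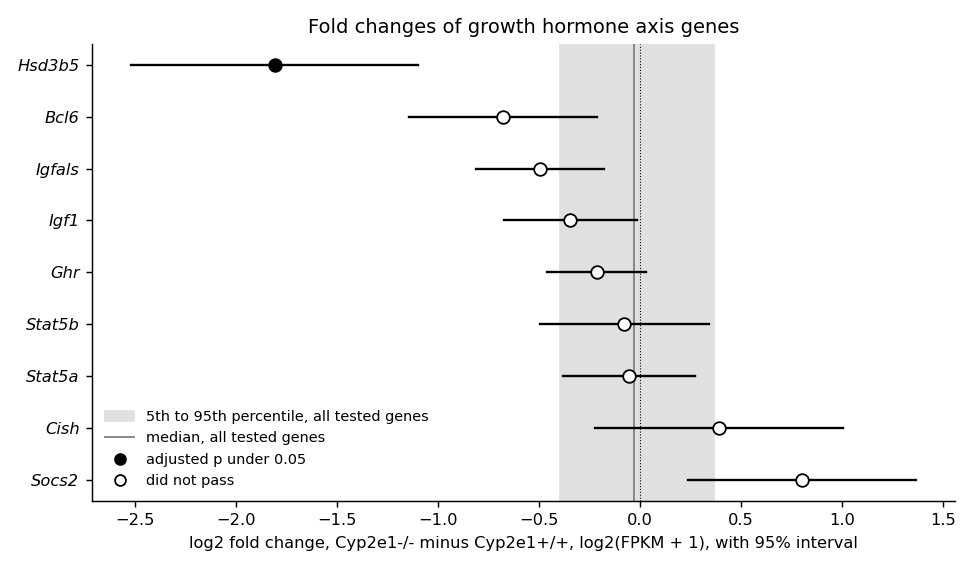
Log2 fold change (Cyp2e1-/- minus Cyp2e1+/+ on log2(FPKM + 1)) of each gene with its 95% interval from limma; the filled point passed at adjusted p under 0.05, open points did not, and the grey band runs from the 5th to the 95th percentile of all tested genes (-0.40 to 0.37). Hsd3b5 at -1.81 lies furthest from 0, and Socs2 at 0.80 is the highest.

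Igf1 and Igfals encode the growth factor and the acid-labile subunit that binds it in blood together with an IGF binding protein. Igf1 (gene 16000, chromosome 10, 87858265 to 87937047) stood at 37.63, 44.39 and 49.16 FPKM in knockout livers, against 48.22, 55.1 and 64.17 FPKM in wild type livers. The highest knockout library just exceeded the lowest wild type library, and the knockout was lower within each replicate number, with differences of -0.35, -0.31 and -0.38 on the log2 scale. Its log2 fold change was -0.34 (SE 0.15, 95% interval -0.67 to -0.02; limma, adjusted p = 0.48). Igfals (gene 16005, chromosome 17, 24877844 to 24882011) stood at 20.58, 27.24 and 27.51 FPKM in knockout livers, against 37.29, 36.69 and 32.73 FPKM in wild type livers. The groups did not overlap, and knockout replicate 1 was the lowest. Means were 25.1 ± 3.93 FPKM in the knockout and 35.6 ± 2.48 FPKM in wild type (SD, n = 3 each), with a log2 fold change of -0.50 (SE 0.14, 95% interval -0.81 to -0.18) that did not pass (limma, adjusted p = 0.22). Igf1 exceeded Igfals 1.75 ± 0.10 times per library in the knockout and 1.58 ± 0.34 times in wild type.

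Hsd3b5 was the member that fell. It encodes a steroid dehydrogenase of the 3-beta family that in mice is typical of male liver and depends on growth hormone and STAT5B (gene 15496, chromosome 3, 98618636 to 98645534). Its levels were 11.35, 29.62 and 32.02 FPKM in knockout livers, against 68.41, 83.77 and 89.98 FPKM in wild type livers. The groups were far apart, and replicate 1 was the lowest library of each. Means were 24.3 ± 11.3 FPKM in the knockout and 80.7 ± 11.1 FPKM in wild type (SD, n = 3 each), a knockout level of 0.301 of wild type. The log2 fold change was -1.81 (SE 0.32, 95% interval -2.52 to -1.10; limma, adjusted p = 0.037). The gene no longer passed, with fold changes of -1.73 to -2.01, when knockout replicate 2 was left out (limma, adjusted p = 0.071) or any wild type library (0.056 for replicate 1, 0.14 for replicate 2 and 0.16 for replicate 3), nor with low genes kept in the test, a filter at 5 FPKM or no mean-variance trend (limma, adjusted p = 0.17, 0.054 and 0.052). Without knockout replicate 1, the lowest library, it passed at -1.35 (limma, adjusted p = 0.0017).

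The relatives of Hsd3b5 did not move as a block. Hsd3b5 lies in a cluster on chromosome 3 with Hsd3b4, Hsd3b2, Hsd3b3, Hsd3b6 and Hsd3b1, and Hsd3b7, of bile acid synthesis, lies on chromosome 7. Hsd3b3 rose, at 79.44, 105.61 and 92.89 FPKM in knockout livers against 46.76, 53.98 and 53.47 FPKM in wild type livers (log2 fold change 0.83; limma, adjusted p = 0.026). That call ended when any library numbered 2 or 3 was left out (limma, adjusted p = 0.15 and 0.11 for those of the knockout, 0.099 and 0.11 for those of wild type), with low genes kept in the test (0.074) and without the trend (0.051). Hsd3b2 stood at 28.72, 44.95 and 48.68 FPKM in knockout livers against 61.47, 74.9 and 83.64 FPKM in wild type livers, without overlap. Its log2 fold change of -0.85 did not pass (limma, adjusted p = 0.12), but did with the replicate number as a block (limma, adjusted p = 0.040). Hsd3b7 averaged 134.5 ± 12.8 FPKM in the knockout and 133.7 ± 19.8 FPKM in wild type (SD, n = 3 each; log2 fold change 0.01, 95% interval -0.30 to 0.32; limma, adjusted p = 0.99), and Hsd3b6 was at 0 to 0.18 FPKM in the knockout and listed at 0 in wild type. Hsd3b5 made up 8.03% ± 2.88 of the summed FPKM of the 5 measured Hsd3b genes in the knockout and 23.8% ± 2.79 in wild type. Of the 31-base words of Hsd3b5 transcripts, 25.6% also occur in Hsd3b4, 1.51% in Hsd3b3 and 0.197% in Hsd3b2, while Hsd3b3 shares 32.2% with Hsd3b2. Reads of these genes may therefore have been divided between neighbours. Hsd3b4 and Hsd3b1 are not among the genes of the expression table, so their levels are not known.

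**Figure D3:**
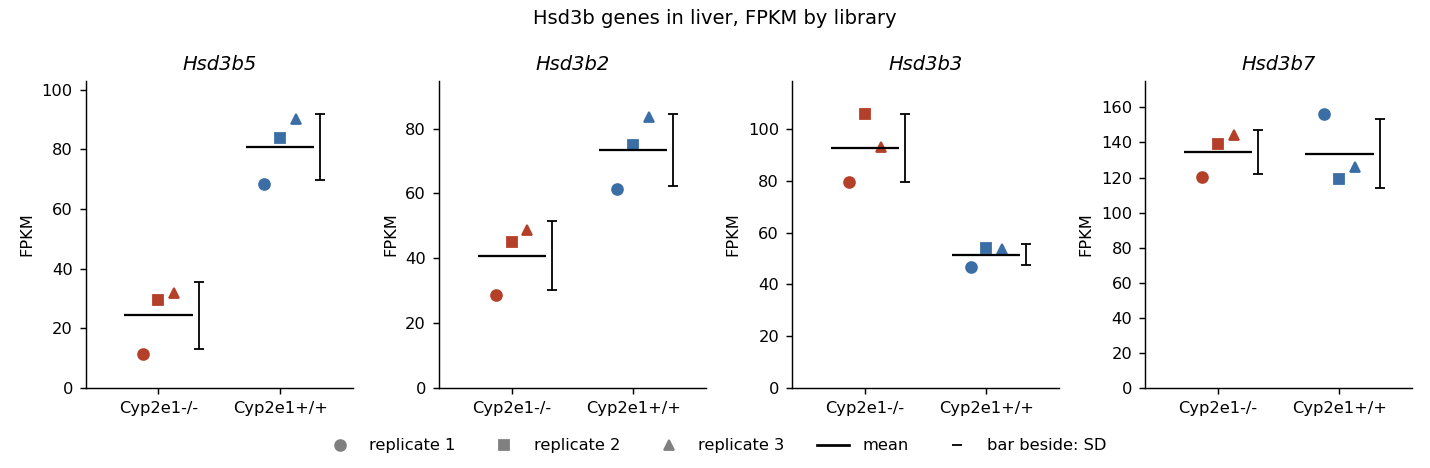
FPKM of Hsd3b5 and 3 relatives in each library, Cyp2e1-/- left of Cyp2e1+/+ (n = 3 each), on linear axes from 0; the horizontal line is the mean and the bar beside it the SD. Hsd3b5 and Hsd3b2 are lower in every knockout library than in every wild type library, and Hsd3b3 is higher, at 79.44 FPKM or more against 53.98 FPKM or less.

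The 5 genes whose profile over the 6 libraries was closest to Hsd3b5, by root mean square difference of centred log2(FPKM + 1) values among 9967 genes, were 6430706D22Rik (0.481), Sult5a1 (0.486), Gna14 (0.514), Mup20 (0.517) and Selenbp2 (0.523). Sult5a1, a sulfotransferase gene, was the only one of them that fell, at 2.3, 3.65 and 4.17 FPKM in knockout livers against 6.99, 9.4 and 7.24 FPKM in wild type livers (limma, adjusted p = 0.048), and each library left out except knockout replicate 1 ended its call (limma, adjusted p = 0.059 to 0.22), as did other pseudocounts, other filters on low values, rescaling without Mup genes and a fit without the mean-variance trend (0.054 to 0.18). Mup20, a major urinary protein gene, stood at 591.61, 1101.81 and 1009.85 FPKM in knockout livers against 1087.08, 1991.71 and 2070.05 FPKM in wild type livers, with overlap only through wild type replicate 1. Selenbp2, a selenium-binding protein gene, stood at 44.55, 57.94 and 66.11 FPKM in knockout livers against 72.92, 163.28 and 155.58 FPKM in wild type livers. Mup20, Selenbp2 and Gna14 did not pass (limma, adjusted p = 0.27, 0.15 and 0.097), but did with the replicate number as a block (limma, adjusted p = 0.027, 0.045 and 0.035). Being picked for likeness to Hsd3b5, their direction is part of the choice.

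Other genes of the pathway were taken from lists, also chosen with earlier results of these data known. Over all tested genes 0.762% passed and 9.93% had an unadjusted p under 0.05 (limma). None of 21 tested genes of growth hormone signal transduction passed (limma; 2 at an unadjusted p under 0.05; median log2 fold change 0.08). Stat3, which also answers interleukin-6, stood at 19.97 ± 3.26 FPKM in the knockout and 16.2 ± 4.4 FPKM in wild type, and the kinase gene Jak1 at 17.2 ± 1.99 and 18.6 ± 3.37 FPKM (SD, n = 3 each). None of 8 tested genes of the IGF system passed (limma; 3 at an unadjusted p under 0.05; median 0.17). Igfbp2, which encodes an IGF binding protein, stood at 224.36, 412.66 and 476.89 FPKM in knockout livers against 232.87, 214.8 and 180.25 FPKM in wild type livers, with only knockout replicate 1 inside the wild type range (log2 fold change 0.76; limma, adjusted p = 0.30). Without that library Igfbp2 passed at 1.09 (limma, adjusted p = 0.0046), in a setting that called 211 of the 9968 tested genes. Igfbp4, the most abundant of the list, averaged 837 ± 86.8 FPKM in the knockout and 704.7 ± 67.9 FPKM in wild type. Igfbp1, singled out after its values were seen, stood at 25.27, 108.29 and 117.39 FPKM in knockout livers against 10.82, 23.93 and 24.69 FPKM in wild type livers. It encodes a binding protein that insulin keeps low. Its log2 fold change of 1.83 did not pass (limma, adjusted p = 0.21), but did with the replicate number as a block (limma, adjusted p = 0.027) and, at 2.53, without knockout replicate 1 (limma, adjusted p = 0.0028).

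None of 21 tested regulators of sex-biased liver expression passed (limma; 6 at an unadjusted p under 0.05; median 0.10). Hnf4a, a hepatocyte master regulator, averaged 97.2 ± 3.39 FPKM in the knockout and 77.8 ± 11.1 FPKM in wild type, without overlap (limma, adjusted p = 0.44), and the receptor gene Nr1i3 (CAR) averaged 103.1 ± 10.5 and 84.9 ± 10.8 FPKM. Onecut1, a growth hormone-responsive factor gene named after its values were seen, was lowest in the libraries numbered 1. It stood at 1.89, 14.59 and 18.74 FPKM in knockout livers, against 5.71, 11.06 and 11 FPKM in wild type livers.

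Male-biased genes moved both ways. Of 25 tested, 1 rose, 1 fell and 23 did not pass, with a median of -0.16 and 16 negative fold changes. At an unadjusted p under 0.05 (limma) there were 7. Over all tested genes 0.762% passed and 9.93% had an unadjusted p under 0.05. Nudt7, a coenzyme A diphosphatase gene of peroxisomes, fell to 130.83, 169.08 and 154.87 FPKM in knockout livers, against 274.78, 268.76 and 269.76 FPKM in wild type livers (log2 fold change -0.84; limma, adjusted p = 0.016). Elovl3, a fatty acid elongase gene, rose to 25.43, 35.0 and 35.33 FPKM in knockout livers, against 14.35, 11.89 and 13.32 FPKM in wild type livers (log2 fold change 1.20; limma, adjusted p = 0.0061). Nudt7 did not pass when knockout replicate 3 (limma, adjusted p = 0.072), wild type replicate 2 (0.085) or wild type replicate 3 (0.10) was left out or low genes were kept in the test (0.053), nor Elovl3 when knockout replicate 2 was (0.055). Hsd3b5 and Elovl3, both male-biased in mouse liver, thus went in opposite directions.

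Of 20 tested female-biased genes 4 rose, none fell and 16 did not pass, with a median of -0.07. An unadjusted p under 0.05 (limma) was reached by 10 of the 20. The shares over all tested genes were 0.762% passed and 9.93% at an unadjusted p under 0.05. The 4 that rose were Cyp4a10 (518.1 ± 30.1 FPKM in the knockout, 208.8 ± 22.1 in wild type; limma, adjusted p = 0.00088), Cyp4a14 (596 ± 12.8 and 188.3 ± 54.8; 0.002), Cyp2b10 (21.8 ± 3.98 and 7.57 ± 2.04; 0.011) and Acot3 (9.55 ± 1.69 and 4.45 ± 0.90; 0.045). Cyp4a10, Cyp4a14 and Acot3 are also known targets of PPARα, and Cyp2b10 of CAR. Cyp2b10 did not pass with the replicate number as a block, without knockout replicate 2 or with low genes kept in the test (limma, adjusted p = 0.060, 0.064 and 0.067). Acot3 lost its call without any of 5 libraries, wild type replicate 1 being the exception (limma, adjusted p = 0.055 to 0.21), and under median of ratios or quantile scaling, other filters on low values, a pseudocount of 0.1 and a fit without the trend (0.051 to 0.15). Among 23 tested genes linked to STAT5 or BCL6 in other work, 1 rose and 22 did not pass (limma; 10 at an unadjusted p under 0.05; median 0.08). The gene that rose was Cdkn1a, for the p21 protein that halts the cell cycle, at 11.05, 18.7 and 17.74 FPKM in knockout livers against 3.67, 4.52 and 2.51 FPKM in wild type livers (log2 fold change 1.87; limma, adjusted p = 0.0043).

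**Figure D4:**
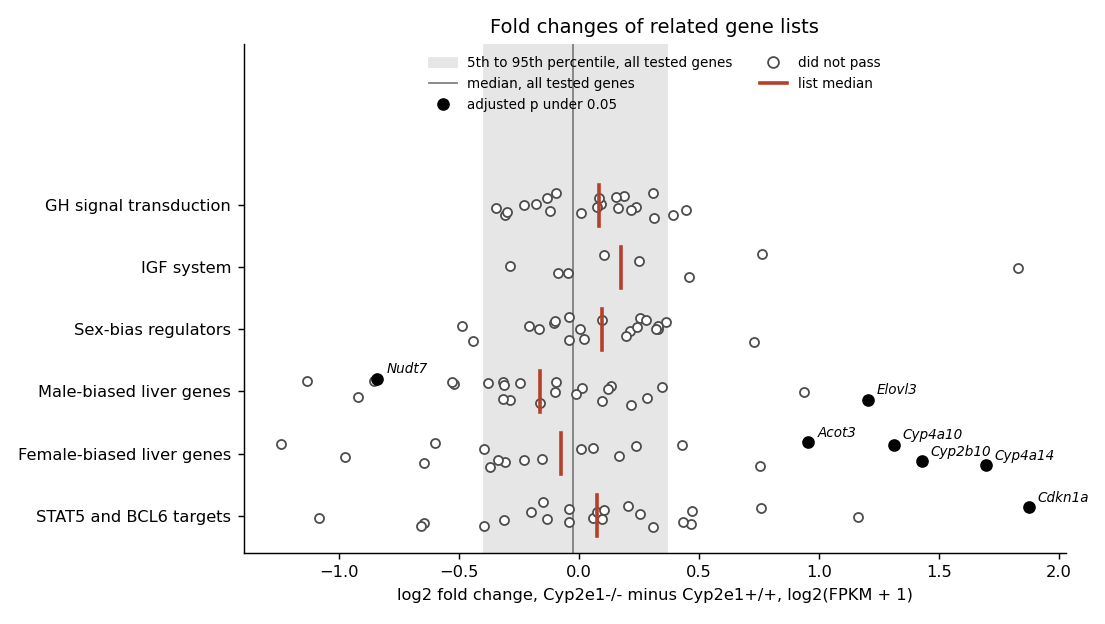
Log2 fold change (Cyp2e1-/- minus Cyp2e1+/+ on log2(FPKM + 1)) of every tested gene in 6 lists related to growth hormone action; filled points passed at adjusted p under 0.05, the red bar is the list median and the grey band the 5th to 95th percentile of all tested genes. No gene passed in the top 3 lists, and list medians lie between -0.16 and 0.17.

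Across 17 alternatives in processing or in the libraries used, the fold change of Hsd3b5 ran from -2.06 to -1.35 and passed in 10. That of Ghr ran from -0.24 to -0.17 and passed in none (limma, adjusted p = 0.097 or higher). The filter at 5 FPKM removed Socs2, Cish, Stat5a and Bcl6 from the test. Socs2 ran from 0.62 to 1.1 and passed in 3 of 16, and Bcl6 from -0.98 to -0.50 and passed in 2 of 16. Igfals ran from -0.56 to -0.33 and Igf1 from -0.44 to -0.24, and each passed in 1 of 17, with sample quality weights (limma, adjusted p = 0.035 and 0.042). Those weights called 1151 of the 9968 tested genes.

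**Figure D5:**
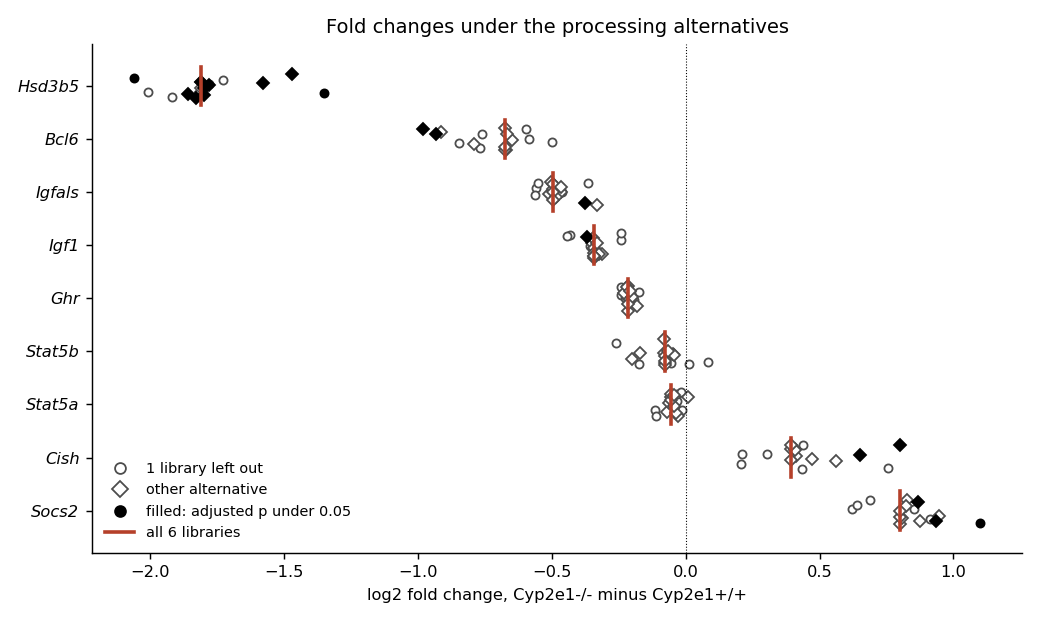
Log2 fold change of each of the 9 genes under up to 17 alternatives; circles leave out 1 library, diamonds change another setting, filled symbols passed at adjusted p under 0.05 and the red bar is the value with all 6 libraries. Stat5a and Stat5b alone cross 0, and they and Ghr have no filled symbol.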

How the data were processed

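Liver RNA libraries, 3 from knockout and 3 from wild type mice, were compared. Per the labels' protocols, RNA came from Qiagen miRNeasy columns and libraries from an Illumina TruSeq RNA kit. The submitters' processing notes name HISAT and mm10. Not given in the sources used here are the quantification program, its annotation and any use of strand. The authors deposited FPKM to 2 decimals, per the file headers. These are not counts, so the planned count test was not used. Depth is not in the table: 64.1% to 71.1% of 206 to 236 low values of short genes were whole multiples of a step to within 0.15. Chance gives 30% at a fixed depth, but more here, as each depth was chosen for the highest share. Such shares are too low to recover counts, and the depths given are estimates fitted to the same values.

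The 9968 genes that reached 1 FPKM in 3 or more of the 6 samples were tested with limma 3.58.1 (lmFit, eBayes with trend; R 4.3.3) on log2(FPKM + 1), knockout minus wild type, which understates changes of low genes, with Benjamini-Hochberg adjustment over all of them. The script was tested on simulated data. Groups and replicate numbers come from the sample titles. The labels do not say whether each library came from a separate mouse, so p-values rest on library-to-library spread alone, which may be technical. Deviations from the group means correlated at 0.30, 0.198 and 0.157 between same-numbered samples, over the 0.1 set for pairing, although wild type replicate 2 was closer to knockout replicate 3 (0.212) than to its own number, and values that sum to 0 within a group are not independent. A fit with the replicate as a block was therefore an alternative. Of 15960 gene identifiers 15915 matched RefSeq GRCm38.p6 for positions.

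Members and lists were chosen with earlier results of these data known. Named are all members, measured Hsd3b genes, per list up to 4 called genes by adjusted p or else the 2 most abundant tested, and the 5 genes closest to Hsd3b5. Other lists held markers of hepatocytes, macrophages, lymphocytes and neutrophils, stellate cells, endothelium, red blood cells, cholangiocytes, pancreas and adipose tissue. Alternatives changed the pseudocount, filter, scaling, block, trend, weights and libraries.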

Additional observations from a re-analysis of the deposited data

How the results depend on the processing

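The count of genes called was 76 with all samples. It was 32 without the filter on low values, 36 with a filter at 5 FPKM, 1151 with sample quality weights and 1183 without both samples numbered 1, and leaving out 1 library gave 29 to 211. Among the 9 growth hormone axis genes 1 was called with all samples, 0 without the filter, with the filter at 5 FPKM or without the eBayes trend, 6 with quality weights (all but Ghr, Stat5a and Stat5b), 4 without both samples numbered 1 (Hsd3b5, Socs2, Cish and Bcl6), and 0 to 2 with 1 library left out. The call of Hsd3b5 ended in 7 of 17 alternatives. In 3 of them, no filter, the filter at 5 FPKM and no trend, its fold change stayed at -1.81 (limma, adjusted p = 0.17, 0.054 and 0.052). The other 4 were the omission of knockout replicate 2 (limma, adjusted p = 0.071) and of each wild type library (0.056 to 0.16), and the range with any 1 library left out was -1.35 to -2.06. Genes called on the related lists numbered 8, then 4 without the filter, 39 with quality weights, 48 without both samples numbered 1 and 4 to 14 with 1 library left out. The replicate block, treating the samples as paired by number, gave 72 genes, 1 member (Hsd3b5, -1.81; limma, adjusted p = 0.027) and 12 list genes, and it changed no call of a member. Signs turned for Stat5a without both samples numbered 1 (0.00767) and, with 1 library left out for Stat5b (-0.262 to 0.0826) and Hsd3b7 (-0.0638 to 0.131), none of which passed. The sign of Onecut1 (-0.0423 with all samples) turned with quality weights (0.319) and without both samples numbered 1 (0.544; limma, adjusted p = 0.032), and its range was -0.561 to 0.825 with 1 library left out. The other members kept their direction in every alternative run. Median of ratios, quantile and Mup-free scaling gave 70, 72 and 73 genes and kept Hsd3b5 as the only member called. The cause of these changes was not tested. Fragments per gene were not available, so the counting error of the low-level members Cish, Bcl6, Stat5a and Socs2 is not known.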

Other observations

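Markers of other cell types gave these values. Summed stellate cell markers (10 genes) were 78.54 to 81.78 FPKM in the knockout and 85.54 to 100.1 FPKM in wild type, and cholangiocyte markers (8 genes) 18.97 to 21.85 and 26.32 to 32.61 FPKM. Most of the stellate sum was Dcn, at 62.97 and 73.84 FPKM on average. Des, Reln, Acta2, Pdgfrb and Hgf also averaged lower in the knockout, and Lrat, Col1a1, Col1a2 and Col3a1 higher. Col1a2 averaged 1.66 and 1.09 FPKM, without overlap (limma, adjusted p = 0.54). Of the cholangiocyte list only Spp1 was tested, at 18.3 and 27.03 FPKM on average (limma, adjusted p = 0.19). The rest averaged under 1 FPKM, with Krt19 and Tspan8 lower in the knockout and Krt7, Epcam, Sox9, Cftr and Ggt1 higher. Endothelial markers (10 genes) were 90.26 to 128.2 and 101.8 to 130.4 FPKM, lymphocyte and neutrophil markers (10 genes) 5.94 to 18.76 and 6.34 to 22.32 FPKM, and adipose markers (3 genes measured) 7.51 to 10.02 and 6.12 to 9.83 FPKM. Pancreas markers (4 genes measured) were 22.05 to 34.21 and 26.06 to 44.58 FPKM, and red blood cell markers (4 genes measured) 196.2 to 393.1 and 231.9 to 535.7 FPKM. The adipose and pancreas sums came mostly from Fabp4 and Cela1. Of all these genes 1, Alas2 of red blood cells, was called, at 8.65 to 10.35 FPKM in the knockout and 44.06 to 50.01 FPKM in wild type (limma, adjusted p = 2e-05). The hemoglobin genes of that list did not follow it. Hba-a1 averaged 171.4 FPKM in the knockout and 176 FPKM in wild type, and Hba-a2 116.2 and 128.5 FPKM (limma, adjusted p = 0.98 and 0.95). Hbb-bt, at 0.257 and 0.157 FPKM, was not tested.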
